A study of Mus musculus with 2 samples.

Results

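The Foxo and Foxp forkhead factors were examined in RNA-seq libraries of cultured mouse B cell progenitors. The 8 genes, *Foxo1*, *Foxo3*, *Foxo4*, *Foxo6*, *Foxp1*, *Foxp2*, *Foxp3* and *Foxp4*, were chosen by name as the members of both families and are represented by 15 protein-coding RefSeq transcripts, 4 of Foxo and 11 of Foxp genes. They are 8 of 20250 named protein-coding genes in the data. The comparison was between 1 library of *Ebf1* -/- pre-pro-B cells, arrested before B lineage commitment, and 1 library of *Rag2* -/- pro-B cells, which are committed but cannot rearrange their antigen receptor genes. Both came from C57BL/6 mice and were grown on OP-9 stromal cells with Il-7 at 5 ng/mL, and the pre-pro-B cells also received Scf and Flt3l at 10 ng/mL each. By the study's methods, livers of female embryos gave the pre-pro-B cells and the bone marrow of adult males the pro-B cells. Differences of stage therefore cannot be told apart from those of genotype, sex, age, tissue of origin and cytokines.

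Forkhead factors bind DNA through a shared winged-helix domain. FOXO proteins activate genes for cell cycle arrest, apoptosis, oxidative stress resistance and lymphocyte development, and growth factor signaling through PI3K and Akt keeps them out of the nucleus by phosphorylation. FOXP proteins mostly repress transcription, bind DNA as dimers and recruit corepressors, with *Foxp1* acting in early B cells and *Foxp3* defining regulatory T cells. In B cell progenitors, *Foxo1* is known for its role in the expression of the Il-7 receptor and of the recombinase genes.

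Values are FPKM, fragments counted on a transcript scaled by its length and by the size of the library, summed over the protein-coding transcripts of a gene. A gene was called higher or lower at 2-fold or more on the log2(FPKM + 1) scale if it had an FPKM of at least 1 in at least 1 library, which left 10528 genes. This scale understates the change of low genes. Of these genes, 12.2% were higher and 19.1% were lower in the pro-B library, and their median log2 ratio (pro-B over pre-pro-B) was -0.14. With 1 library per cell type there is no replicate error and no test, so all differences below describe these 2 libraries. The error given is the 95% interval that Cuffdiff attached to each transcript. Because each library is a bulk sample, fewer cells of a type and less RNA per cell cannot be told apart.

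The labelled stages were checked first. All 8 B lineage marker genes were higher in the pro-B library, with a summed FPKM of 9.97 in the pre-pro-B and 2780 in the pro-B library. *Ebf1* was at 64.0 FPKM in its own null cells and at 273 in the pro-B library, and *Rag2* was at 22.9 in its own null cells and at 34.5 in the pre-pro-B library. Neither targeted gene was thus at 0 in its null library, and an FPKM covers the whole transcript, not the deleted part. The labels give a nominal depth of 90 M reads of 97 bp per library. Fragment numbers below are approximations from that depth and cover counting error only.

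The Foxo and Foxp genes did not move in a common direction. Of the 8 genes, 5 passed the filter on low values. Among these, 1 (*Foxo1*) was at least 2-fold higher and 1 (*Foxo3*) at least 2-fold lower in the pro-B library, while *Foxo4*, *Foxp1* and *Foxp4* lay within 2-fold. Each share, 1 of 5 genes, rests on a single gene and is read against the 12.2% and 19.1% of all genes. *Foxp3* stayed below the filter, and *Foxo6* and *Foxp2* were listed at 0 in both libraries. The intervals of the libraries did not overlap for 1 of the 7 member transcripts at 1 FPKM or more, that of *Foxo1*, against 4.38% of 12716 protein-coding transcripts.

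**Figure D1:**
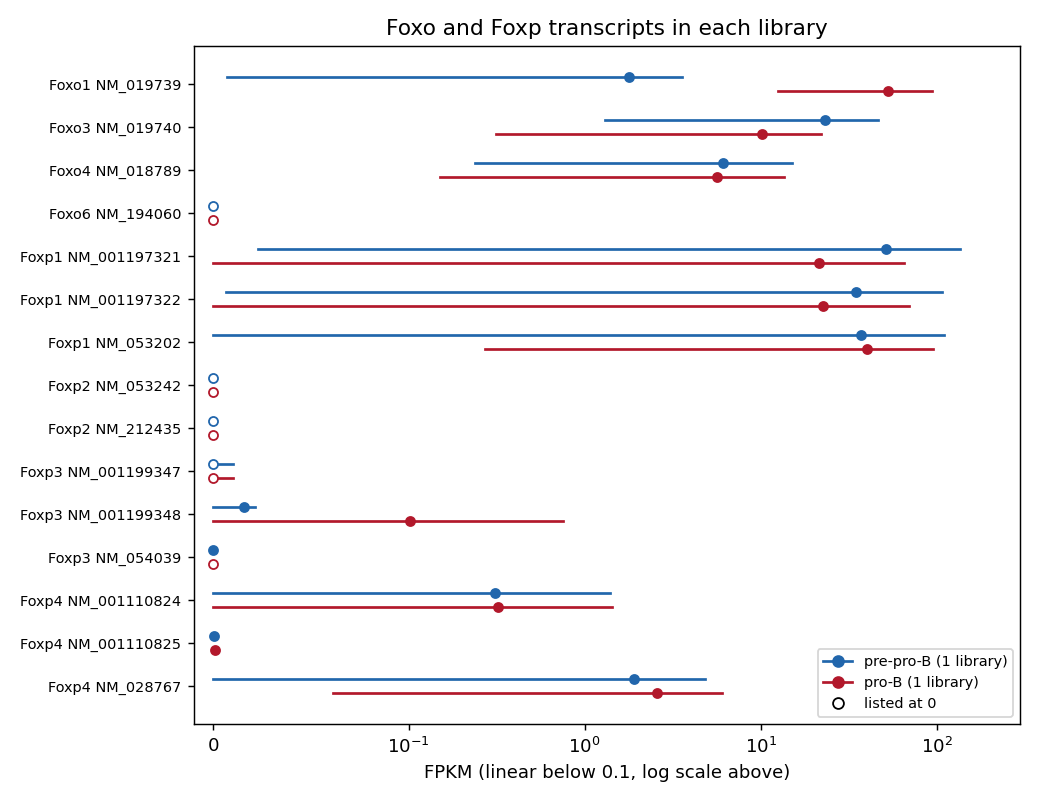
FPKM of the 15 Foxo and Foxp transcripts in the pre-pro-B (blue) and the pro-B (red) library, with Cuffdiff's 95% interval as a line; the axis is linear below 0.1 and logarithmic above, and open circles are listed at 0. Of the 15 pairs of lines only that of *Foxo1*, from 0.00712 to 3.59 and from 12.5 to 94.1 FPKM, is apart.

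*Foxo1* (NM_019739, chromosome 3 of mm9, 52072259 to 52154031, plus strand) showed the largest difference of the members. Its FPKM was 1.78 in the pre-pro-B library (interval 0.00712 to 3.59). The pro-B library gave 53.3 (interval 12.5 to 94.1). The pro-B value was 30.0-fold higher, a log2 ratio of 4.29 with the pseudocount and of 4.91 without. About 888 fragments lay behind the lower value and about 26600 behind the higher one, so both were counted well above the level of 3 fragments. Of the 10528 genes, 77 had a larger log2 ratio. *Foxo1* moved from above 53.1% of all genes by FPKM to above 93.4%. The B lineage markers moved in the same direction (7 of 8 with intervals apart), and their part in this result was not tested.

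The 250 bases before the *Foxo1* start are shown because the library with the low value came from cells with the *Ebf1* null allele. The sequence is from the RefSeq promoter table of GRCm38.p6 and was found once in mm9, at chr3:52072009-52072258 on the plus strand. It is written 5′ to 3′, with capitals for the letters CCCNNGGG, the core of the *Ebf1* binding motif, which reads the same on both strands.
Foxo1: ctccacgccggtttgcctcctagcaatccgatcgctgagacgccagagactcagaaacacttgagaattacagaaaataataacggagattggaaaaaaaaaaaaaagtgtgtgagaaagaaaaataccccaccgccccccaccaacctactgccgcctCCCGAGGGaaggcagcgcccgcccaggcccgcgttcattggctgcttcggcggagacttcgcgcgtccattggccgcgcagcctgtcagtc
The letters lay 91 to 84 bases before the start. They occurred in 13.8% of 19816 promoters of the same length, so a match is common and is given as a description only. Of the 8 member promoters in that table, which belong to *Foxo1*, *Foxo3*, *Foxp1*, *Foxp3* and *Foxp4*, 3 held them. The other matches were in *Foxo3*, at chr10:41996572-41996599 on the minus strand, and in 1 of 3 *Foxp1* promoters, at chr6:99471084-99471111 on the minus strand, upstream of the locus of the *Foxp1* transcripts measured here.
Foxo3: cccagccctcCCCCTGGGcggggacccg
Foxp1: cagctcccgcCCCCTGGGagcctaagga
The log2 ratios of *Foxo1*, *Foxo3* and *Foxp1* were 4.29, -1.12 and -0.54, and the part of these letters in them was not tested. The *Foxp1* match lies outside the locus that gave its ratio. The E-box letters CAGGTG, which E proteins bind, were found on either strand in 2 of the 8, those of *Foxp1* and *Foxp4*, and in 16.8% of all promoters. In its share of G and C the *Foxo1* promoter, with 56.0%, was close to the median of all promoters (56.4%). *Foxo3* had 76.4% and *Foxp3* 41.8% (mean of 2 promoters). Steps of C followed by G (CpG) were more frequent than the median of 10 in *Foxo1* (20) and *Foxo3* (31), and less frequent in *Foxp3* (mean 6.5).

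*Foxo3* (NM_019740, chromosome 10, 41901647 to 41996561, minus strand), which shares many target genes with *Foxo1*, went the other way. Its FPKM was 23.2 in the pre-pro-B library (interval 1.31 to 46.5) and 10.2 in the pro-B library (interval 0.315 to 22.0). The pro-B value was 2.29-fold lower, a log2 ratio of -1.12, and the intervals overlapped. Of the 10528 genes, 1759 had a smaller log2 ratio. Relative to the median of all genes the log2 ratio of *Foxo3* was -0.98, which is within 2-fold, so its call as lower does not hold on that scale.

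*Foxo4* (NM_018789, chromosome X, 98449867 to 98456212, plus strand), a ubiquitous member, was at nearly the same level in both libraries. The FPKM was 6.12 (interval 0.237 to 15.0) in the pre-pro-B and 5.68 (interval 0.150 to 13.7) in the pro-B library, and the log2 ratio of -0.09 was close to the median of all genes. *Foxo6* (NM_194060, chromosome 4, 119939684 to 119959954, minus strand), known mainly from the brain, was listed at 0 in both. At the nominal depth 3 fragments of this transcript would be an FPKM of 0.0132, and a listed 0 is not read as absence.

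The order of the Foxo genes was therefore not the same in the libraries. In pre-pro-B cells *Foxo3* was highest, followed by *Foxo4* and *Foxo1*, whose intervals all overlapped. In pro-B cells *Foxo1* was highest, followed by *Foxo3* and *Foxo4*, and the intervals of neighbours in this order overlapped as well. *Foxo3* was at 13.1 times the FPKM of *Foxo1* in the pre-pro-B library, and *Foxo1* at 5.25 times that of *Foxo3* in the pro-B library. Summed over the family, the FPKM was 31.1 and 69.1, or 2.22-fold higher in the pro-B library. *Foxo1* made up 5.71% of that sum in the pre-pro-B library and 77.1% in the pro-B library, while *Foxo3* made up 74.6% and 14.7%.

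**Figure D2:**
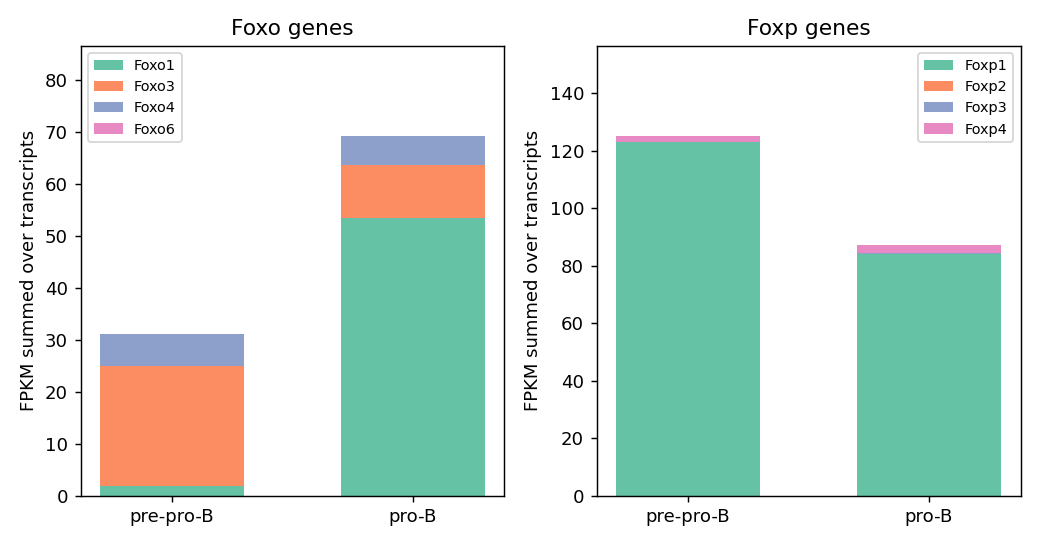
FPKM of the Foxo (left) and Foxp (right) genes stacked by gene for the pre-pro-B and the pro-B library, 1 library per bar. The Foxo bar goes from 31.1, mostly *Foxo3*, to 69.1, mostly *Foxo1*, whereas *Foxp1* makes up nearly all of both Foxp bars (126 and 87.3).

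The genes with the most similar pair of levels to *Foxo1*, by distance on the log2(FPKM + 1) scale among 8851 genes at 1 FPKM or more in both libraries, were the histone gene *H3c8* (1.98 and 53.2 FPKM), *4930523C07Rik* (2.09 and 57.4) and *9530077C05Rik* (2.02 and 47.6). Likeness over 2 libraries says only that both levels are close.

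The kinases, adaptors and modifying enzymes that act on FOXO proteins were mostly expressed at similar levels. All 26 genes of this list passed the filter, of which 3 were higher (11.5%), 4 were lower (15.4%) and 19 were within 2-fold, with a median log2 ratio of -0.21. Both shares were near those of all genes. Among the higher genes was *Stk4*, the Mst1 kinase (140 and 327 FPKM in the pre-pro-B and the pro-B library). The lower genes were the kinases *Sgk3* (29.8 and 10.0) and *Mapk8* (28.0 and 12.9), and the phosphoserine-binding adaptors *Sfn* (3.49 and 1.19) and *Ywhaz* (73.1 and 35.4). Under median-ratio scaling between the libraries the count of lower genes was 1 in place of 4. *Akt1* (24.7 and 30.6) and *Akt2* (11.2 and 8.59) were within 2-fold. These are RNA levels and do not measure kinase activity or the location of FOXO proteins.

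Known FOXO target genes went in both directions. Over 3 lists of 47 genes, 41 passed the filter, of which 11 were higher in the pro-B library (26.8%, against 12.2% of all genes), 10 were lower (24.4%, against 19.1%) and 20 were within 2-fold. Their median log2 ratio was -0.33, against -0.14 for all genes. The share of higher genes was thus above that of all genes, although the median of the targets was below theirs. The lists were chosen with earlier results of these data known. They include *Ebf1*, whose null allele the pre-pro-B cells carry, and *Ccnd1*, which FOXO represses.

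Among 11 lymphoid targets, 10 passed the filter, 3 were higher (30.0%, against 12.2% of all genes) and 3 were lower (30.0%, against 19.1%). *Blnk*, the adaptor that couples the pre-B cell receptor to downstream kinases, was at 1.83 FPKM (interval 0 to 6.29) in the pre-pro-B and at 147 (interval 17.1 to 378) in the pro-B library, 80.5-fold higher and with intervals apart. *Rag1*, a recombinase subunit, was at 24.4 and 64.4 FPKM. *Ebf1* was also among the higher genes, but the pre-pro-B cells carry its null allele. Those that were lower encode proteins of lymphocyte trafficking or its control. *S1pr1*, the receptor for egress from lymphoid organs, was at 6.78 FPKM (interval 0.0652 to 14.4) and 0.0144 (interval 0 to 0.0522), the latter from about 3.92 fragments. *Klf2*, a factor that maintains quiescence and *S1pr1* expression, was at 7.55 and 1.35 FPKM. *Ccr7*, a homing receptor, was at 13.1 and 4.80. Of those within 2-fold, *Il7r*, the Il-7 receptor chain, was at 349 and 424 FPKM, and *Ikzf1* (Ikaros) at 240 and 133. *Il7r* was above 99.6% of genes in the pre-pro-B and 99.7% in the pro-B library, and the part of *Foxo1* in its level was not tested. *Rag2* was within 2-fold too, with the pro-B cells carrying its null allele.

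Of 15 targets in cell cycle and survival, 14 passed the filter, 5 were higher (35.7%, against 12.2% of all genes) and 3 were lower (21.4%, against 19.1%). Genes of growth arrest were found among the higher, the lower and those within 2-fold. *Gadd45a*, a stress-induced arrest gene, was at 5.18 and 31.9 FPKM. *Cdkn1b*, an inhibitor of cyclin-dependent kinases, was at 33.7 and 112. *Btg1*, an antiproliferative gene, was at 28.5 and 86.3, and the atypical cyclin *Ccng2* was at 102 and 244. *Bcl6*, a transcriptional repressor of B cells, was at 7.13 and 16.7 FPKM. In the other direction, *Tnfsf10*, the death ligand Trail, was at 10.8 FPKM (interval 1.68 to 19.9) and 0.476 (interval 0 to 1.28), with intervals apart. *Ccnd1*, a D-type cyclin that FOXO represses, was at 1.62 and 0.184, and *Gadd45b* at 4.60 and 1.40. The cell cycle inhibitors *Cdkn1a* (8.56 and 14.2) and *Rbl2* (44.0 and 25.6) and the death genes *Bcl2l11* (22.1 and 17.3) and *Bbc3* (8.76 and 5.09) were within 2-fold.

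The 21 targets in stress resistance and metabolism included 17 that passed the filter, with 3 higher (17.6%, against 12.2% of all genes), 4 lower (23.5%, against 19.1%) and 10 within 2-fold. Catalase (*Cat*), which breaks down hydrogen peroxide, was at 48.6 and 226 FPKM. *Irs2*, an insulin receptor substrate, was at 1.01 and 4.22, and *Bnip3*, a mitophagy receptor, at 18.3 and 43.2. Lower were the insulin receptor *Insr* (17.2 and 6.25), the muscle ubiquitin ligases *Fbxo32* (11.0 and 3.39) and *Trim63* (1.29 and listed at 0), and *Pik3ip1* (55.5 and 25.8), an inhibitor of PI3K. *Sod2*, the mitochondrial superoxide dismutase, was at 49.4 and 40.2 FPKM, and the feedback target *Rictor* at 41.0 and 39.0.

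**Figure D3:**
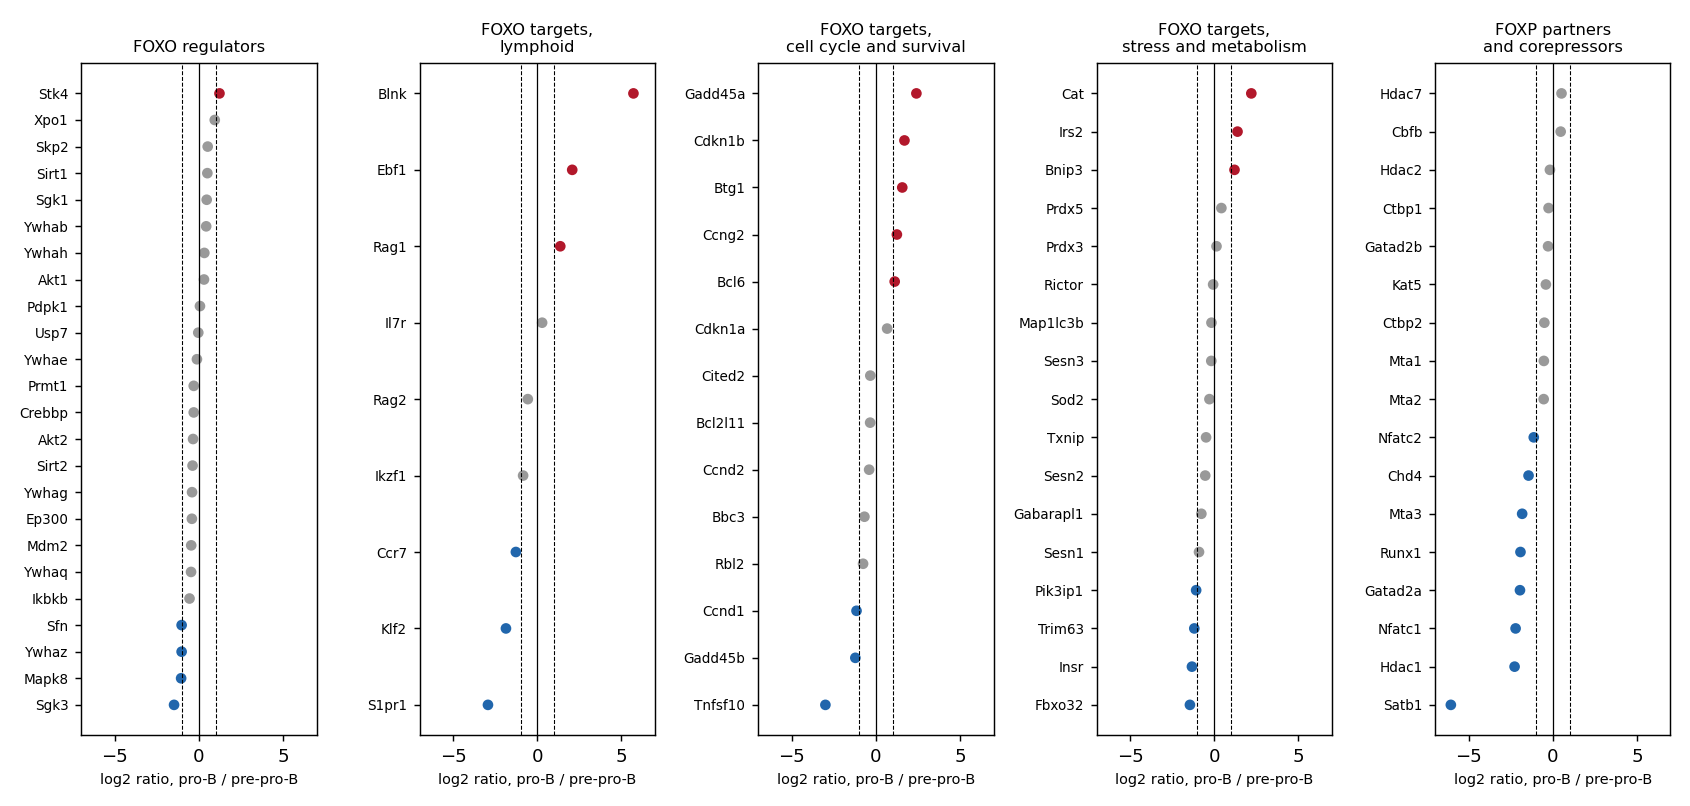
Log2 ratio (pro-B over pre-pro-B, FPKM + 1) of genes at 1 FPKM or more in a library (3 of them not shown), for FOXO regulators, the 3 lists of FOXO targets, and FOXP partners; 1 point per gene, dashed lines at 2-fold, red higher and blue lower in the pro-B library. The FOXO target lists spread to both sides (11 higher, 10 lower), and the FOXP partners show 0 higher and 8 lower genes.

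The letters TGTTTAC, the core FOXO binding motif, were then searched on both strands in the 250 bases before each target's start. They were found in 5 of 47 promoters of 39 target genes (10.6%) and in 2.58% of all 19816 promoters, and in 0 of the 8 member promoters. The target list was drawn from genes known to respond to FOXO, so it is not independent of the motif. The 5 matches are shown at their mm9 positions with 10 bases on each side, 5′ to 3′ on the strand of the gene. The capitals mark the motif, or GTAAACA where it lies on the opposite strand.
Bbc3, chr7:16895433-16895459, plus strand: ctggcgggttTGTTTACaaacaatggg
Bcl2l11, chr2:127951537-127951563, plus strand: agacactaggGTAAACAcgccggggtg
Btg1, chr10:96079421-96079447, plus strand: ggggtttattTGTTTACaagcagatta
Trim63, chr4:133870831-133870857, plus strand: agtctgttctTGTTTACgacccccacg
Txnip, chr3:96361749-96361775, plus strand: tggaggcctgGTAAACAagggccaagt
Of these 5 genes, *Btg1* was higher and *Trim63* lower in the pro-B library. *Bbc3*, *Bcl2l11* and *Txnip*, an inhibitor of thioredoxin (288 and 205 FPKM), were within 2-fold.

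Among the FOXP genes, *Foxp1* (chromosome 6, 98875332 to 99216526, minus strand) was far above the others. Its summed FPKM was 123 in the pre-pro-B and 84.3 in the pro-B library, above 98.2% and 96.4% of all genes. The sum was 1.46-fold lower in the pro-B library, a log2 ratio of -0.54 that lay within 2-fold. The ratio turned to 0.11 with NM_053202 alone, the most abundant transcript over both libraries together. In the pre-pro-B library by itself NM_001197321 was the most abundant, and that transcript was 2.40-fold lower in the pro-B library. The sum covers 3 transcripts whose values did not move together. NM_001197321 had an FPKM of 51.3 (interval 0.0230 to 136) in the pre-pro-B and of 21.4 (interval 0 to 65.0) in the pro-B library, 2.40-fold lower. NM_001197322 had 34.6 (interval 0.00645 to 107) and 22.5 (interval 0 to 69.5), 1.54-fold lower. NM_053202 had 37.3 (interval 0 to 110) and 40.5 (interval 0.273 to 95.6), a ratio of 1.08. The share of NM_053202 in the gene was thus 30.3% in the pre-pro-B and 48.0% in the pro-B library, while that of NM_001197321 was 41.6% and 25.3%. All 3 pairs of intervals overlapped, and their lower ends were at or near 0. Cuffdiff divided the reads that the transcripts share among them, so their split is less certain than the sum. The locus of these transcripts reaches to 99385339, and in the gene annotation *Foxp1* overlaps *Eif4e3* on the same strand.

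*Foxp4* (chromosome 17, 48004082 to 48061594, minus strand), a close relative of *Foxp1* that can form dimers with it, was at 2.23 and 2.89 FPKM, a log2 ratio of 0.27. Nearly all of it came from NM_028767, at 1.92 (interval 0 to 4.83) and 2.57 (interval 0.0614 to 6.02), or 86.0% and 88.8% of the gene. NM_001110824 was at 0.311 and 0.321, and NM_001110825 corresponded to less than 1 fragment in each library.

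*Foxp3* (chromosome X, 7156802 to 7172369, plus strand), the defining factor of regulatory T cells, was near 0 in both libraries and passed no filter. Its sum was 0.0158 FPKM in the pre-pro-B and 0.101 in the pro-B library, almost entirely from NM_001199348 (intervals 0 to 0.0214 and 0 to 0.750), or about 5.21 and 33.7 fragments. NM_001199347 was listed at 0 in both, and NM_054039 stood at 9.905e-05 and 0. Cuffdiff assigned reads at this locus together for 6 transcripts of *Foxp3*, *Ppp1r3f*, *Ccdc22* and *Flicr*. In the gene annotation *Ppp1r3f* and *Ccdc22* overlap *Foxp3* on the opposite strand and *4930524L23Rik* on the same strand. The T cell markers as a group were higher in the library with less *Foxp3*. The 9 of them, *Foxp3* included, summed to 79.3 FPKM in the pre-pro-B and to 3.59 in the pro-B library, mostly from *Cd3g* (36.8 in the pre-pro-B library) and *Lck* (38.0 there), and all 4 past the filter were lower in the pro-B library. The CD3 chain *Cd3e* was at 0.239 and 0.102, and the part of T cell RNA in these values was not tested. *Foxp2* (chromosome 6, 14851349 to 15391977, plus strand), known from the developing brain and lung, had its transcripts NM_053242 and NM_212435 listed at 0 in both libraries, where 3 fragments would be 0.00493 and 0.00519 FPKM.

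In both libraries the Foxp genes had the same order, *Foxp1*, then *Foxp4*, then *Foxp3*, with *Foxp1* at 55.3 and 29.2 times the level of *Foxp4*. *Foxp1* made up 98.2% of the Foxp sum of 126 in the pre-pro-B library and 96.6% of the 87.3 in the pro-B library. The Foxp sum was 1.44-fold lower in the pro-B library (log2 ratio -0.52). As for *Foxp1*, the ratio turned to 0.13 with the most abundant transcript of each gene over both libraries together, and it rests on that choice. Over all 8 genes the sums were nearly equal, at 157 and 156 FPKM. *Foxp1* held 78.7% of the first and 53.9% of the second, and *Foxo1* held 1.13% and 34.1%. *Foxp1* was at 69.4 times the FPKM of *Foxo1* in the pre-pro-B library and at 1.58 times in the pro-B library.

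**Figure D4:**
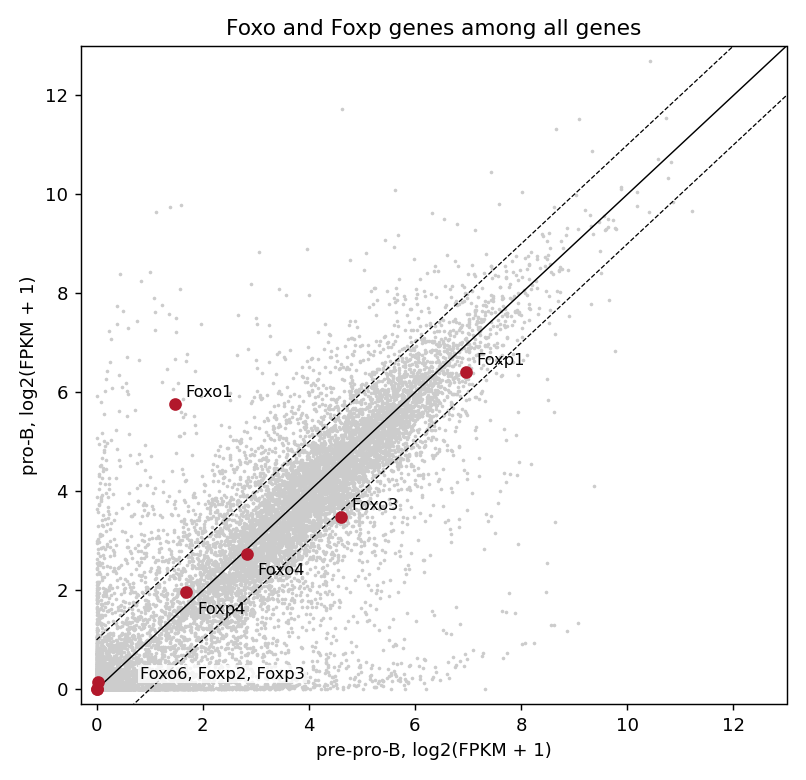
Each protein-coding gene by its log2(FPKM + 1) in the pre-pro-B (horizontal) and the pro-B (vertical) library, with the 8 Foxo and Foxp genes in red, the line of equality solid and 2-fold dashed. *Foxo1* stands far above the upper dashed line (log2 ratio 4.29), *Foxo3* just below the lower one (-1.12), and *Foxo4*, *Foxp1* and *Foxp4* between them.

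The partners and corepressors of FOXP proteins were lower or within 2-fold in the pro-B library. Of 18 genes, 17 passed the filter, with 0 higher, 8 lower (47.1%, against 19.1% of all genes) and 9 within 2-fold, and the median log2 ratio was -0.54. Markers of other lineages had lower sums too, from 79.3 to 3.59 FPKM for T cell and from 61.5 to 6.52 for myeloid markers. Of these, 4 of 9 and 3 of 8 passed the filter, and only *Lck* and *Itgam* reached 1 FPKM in both libraries. The others passed through the pre-pro-B library alone, so they could not have been called higher. The part of these markers in this result was not tested. For none of the FOXP partners and corepressors that passed the filter were the intervals of the most abundant transcript apart. *Satb1*, a chromatin organizer of lymphoid progenitors, was at 199 FPKM in the pre-pro-B and at 1.99 in the pro-B library. Subunits of the NuRD repressor complex were split. The lower ones were *Hdac1*, a histone deacetylase (11.2 and 1.53), *Gatad2a* (7.36 and 1.17), *Mta3* (42.1 and 11.2) and the remodeling ATPase *Chd4* (126 and 45.8). In the same complex, *Hdac2* (70.8 and 62.8), *Gatad2b* (32.9 and 26.9), *Mta1* (17.6 and 11.9) and *Mta2* (71.6 and 49.1) were within 2-fold. Of the DNA-binding partners of *Foxp3*, *Runx1* was at 64.4 and 16.3 FPKM, *Nfatc1* at 30.7 and 5.83, and *Nfatc2* at 1.19 and listed at 0. These genes count among the 8 lower ones, although *Foxp3* itself was near 0 in both libraries (0.0158 and 0.101 FPKM). The corepressors *Ctbp1* (90.1 and 75.4) and *Ctbp2* (11.0 and 7.52) were within 2-fold.

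Compared with the 36 other forkhead genes, the Foxo and Foxp genes included the highest level. Of the 36, 10 passed the filter, of which 3 were higher (30.0%, against 12.2% of all genes), 1 was lower (10.0%, against 19.1%) and 6 were within 2-fold, and 19 were listed at 0 in both libraries. In each library *Foxp1* had the highest FPKM of all forkhead genes, and in the pro-B library *Foxo1* (53.3) came next, above *Foxn3* (28.5) and *Foxj3* (25.9). In pre-pro-B cells the second place was held by *Foxf1* (46.1), followed by *Foxj3* (24.7), *Foxo3* (23.2) and *Foxn3* (23.2). With the pseudocount *Foxo1* had the largest log2 ratio of the forkhead genes that passed the filter, with *Foxc1* next (3.47), but without it *Foxc1* came first (6.22 against 4.91).

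**Figure D5:**
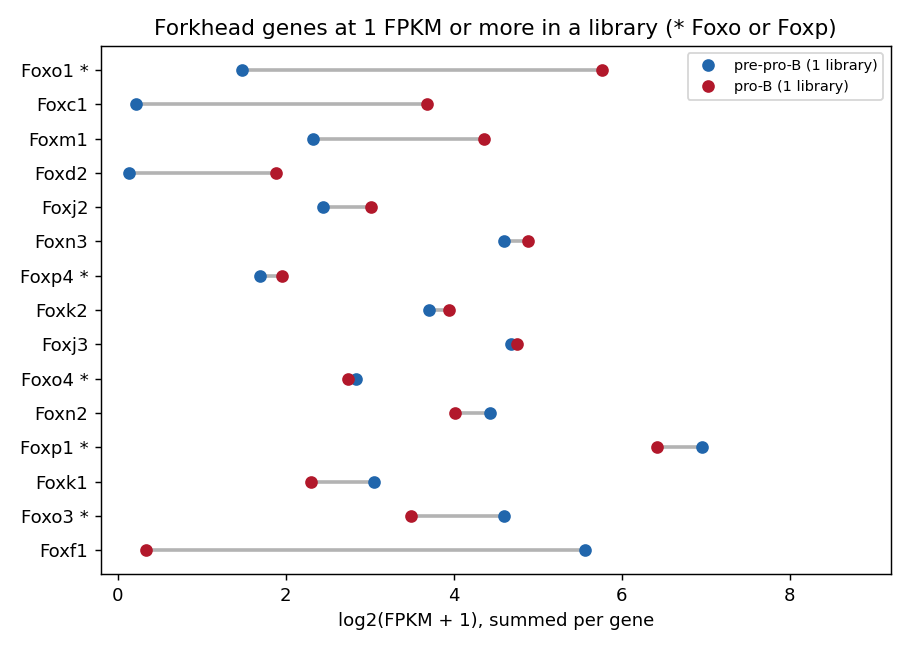
Level of each forkhead gene at 1 FPKM or more in a library, on the log2(FPKM + 1) scale, in pre-pro-B (blue) and pro-B cells (red), ordered by log2 ratio; 1 library per point and stars for Foxo and Foxp genes. *Foxo1* has the longest line to the right (log2 ratio 4.29) and *Foxf1* the longest to the left (-5.22).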

How the data were processed

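RNA-seq of 1 library per cell type was analysed. Per the labels, RNA freed of short RNAs, with a RIN of 9.9, was depleted of rRNA and made into strand-specific libraries. The authors trimmed the reads, aligned them to mm9 with TopHat (up to 20 alignments per read) and estimated the deposited FPKM and 95% intervals of each RefSeq transcript with Cuffdiff 2.1.1, correcting for multi-reads and bias, testing from 10 alignments up and leaving the libraries unscaled to each other. These intervals come from a dispersion estimated over both libraries and may not contain very low values. The sources give different TopHat versions. A second deposited table holds the authors' own comparison (fold changes, p-values and q-values) and was not used.

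Of 30485 transcripts, 26968 are protein-coding, 26555 of which a RefSeq gene table of GRCm38.p6 named (413 unmatched; 3517 non-coding transcripts were used only in an alternative). FPKM were summed per gene. Gene positions are from GENCODE on mm9. Promoters were from RefSeq (GRCm38.p6), 19816 of 16216 genes, and placed on mm9 by exact match. No entry was found for *Foxo4*, *Foxo6* and *Foxp2*. Python 3.11.15, numpy 2.4.6, pandas 2.3.3 and matplotlib 3.10.9 were used, and the 2-fold calls were tested on simulated data.

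The genes and lists were chosen with earlier results of these data known. All 8 genes and each of their transcripts were named, and in each list the genes past 2-fold came first, then others of the list, except for a few listed genes that are counted but not reported here by name. The alternatives were pseudocounts, scalings, filters and other sums per gene.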

Additional observations from a re-analysis of the deposited data

How the results depend on the processing

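Over the alternatives, 44 of 45 log2 ratios of *Foxo1*, *Foxo3*, *Foxo4*, *Foxp1* and *Foxp4* kept their direction and their side of 2-fold. Part of this count was fixed in advance. The filters do not enter a gene's own ratio, and including non-coding transcripts left these ratios unchanged. *Foxo1*, *Foxo3* and *Foxo4* have a single transcript each, so the choice of transcript could not change them. *Foxp1* turned from -0.54 to 0.11 with the most abundant transcript of each gene, because NM_053202 alone was then used. It was the highest over both libraries together, but not in the pre-pro-B library. The ratios ranged from 4.29 to 4.90 for *Foxo1*, from -1.26 to -1.04 for *Foxo3*, from -0.19 to -0.02 for *Foxo4* and from 0.25 to 0.37 for *Foxp4*. Of 127 counts, 121 stayed within 1.5 times. Those of 2-fold genes without a filter could not change, since a gene below 1 FPKM in both libraries cannot reach 2-fold with the pseudocount. The lower FOXO regulators (4) were 1 with median-ratio scaling and 2 with the most abundant transcript. With an FPKM of at least 1 required in both libraries, the lower cell cycle and survival targets (3) were 1, the higher other forkhead genes (3) were 1 and the lower ones (1) were 0, since that filter removes genes that are near 0 in a library. With TPM the lower other forkhead genes were 2.

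The median log2 ratio of all genes was -0.14, -0.25 with TPM and -0.05 with median-ratio scaling. Relative to these medians *Foxo3* was at -0.98, -1.01 and -0.98, which is past 2-fold with TPM alone, and *Foxo4* at 0.05, 0.06 and 0.04. Higher genes made up 38.9% of all calls, and 47.9% where 1 FPKM was required in both libraries. At 80 M reads per library the fragments would be 789 and 23700 for *Foxo1* and 4.66 and 29.9 for *Foxp3*. No paired analysis was possible because each cell type has 1 library. The depth is nominal, and no value has a replicate.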

Other observations

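Outside the Foxo and Foxp genes, other forkhead genes also differed between the libraries. *Foxc1*, a factor of mesenchymal and bone marrow niche cells, was at 0.158 FPKM (interval 0 to 0.347) in the pre-pro-B library and at 11.8 (interval 1.99 to 21.6) in the pro-B library, with intervals apart. *Foxf1*, a factor of mesoderm-derived mesenchyme, was at 46.1 (interval 10.1 to 82.1) and 0.263 (interval 0 to 0.570), 175-fold lower in the pro-B library and with intervals apart. *Foxd2* was at 0.0934 and 2.70, and *Foxm1*, which drives genes of the G2 and M phases, at 4.02 and 19.6. The cells were grown on OP-9 stroma and then kept in a fresh flask to which residual stromal cells attach before the suspension was taken, and stromal markers are given beside these values. Of 10 stromal markers, 5 passed the filter, 2 were higher and 1 was lower in the pro-B library, and the summed FPKM was 19.0 in the pre-pro-B library, most of it from *Pdgfrb* (15.9), and 11.0 in the pro-B library. *Pdgfrb* was at 0.377 there. *Col1a2* was at 0.707 and 2.82, *Cxcl12* at 0.618 and 2.92, *Sparc* at 1.13 and 2.81 and *Col3a1* at 0.242 and 1.13, while *Dcn* and *Postn* were listed at 0 in both. Their part in the *Foxc1* and *Foxf1* values was not tested. Myeloid markers had a summed FPKM of 61.5 and 6.52, mostly from *Mpo* (35.7 in the pre-pro-B library), with *Elane* listed at 0 in both. Of 6 erythroid markers, 5 were in the table and 0 reached 1 FPKM.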
